A study of Mus musculus with 8 samples.

Results

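Erythroid, heme and progenitor genes, a list of 35 symbols that mark red cell precursors, heme synthesis and KIT-positive blood progenitors, were followed in RNA from CD8+ T cells of mouse spleen. They comprise Kit with 6 transcription factors, 2 receptors, 4 globins with their chaperone Ahsp, 8 genes of heme synthesis, 8 genes of the red cell membrane and 5 other erythroid genes. The symbols were chosen for their known roles and with the difference between the study's groups already known, so their levels, and the calls that sort them, are given as a description and not as tests of them. Of the 35 symbols, 34 matched 1 row each among the 55291 genes of the count table, and no row matched Ahsp, which was not analysed here.

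The study made 8 libraries from cells labelled as naïve CD8 T cells, taken from mice also called naïve, 4 of ATF4 overexpression, whose genotype is labelled ATF4 Tg/Tg, and 4 of WT. ATF4 is the transcription factor of the integrated stress response. The design text names the mice of the series differently, as ATF4Tg/Tg or E8IcreATF4Tg/Tg, so WT is kept here as the name in the sample labels and no more. E8I-cre is a Cre driver built on an enhancer of the Cd8a gene and is used to recombine mature CD8+ T cells. The cells were enriched with a magnetic isolation kit and no fluorescence sort is described, so the libraries can hold RNA of other spleen cells. Ages and sexes were not given in the labels used here. Whether each sample is a separate mouse is not stated, so every p-value below measures only the spread between these samples, which may be technical.

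In red cell development a KIT-positive progenitor commits under the control of GATA1, TAL1 and KLF1, with GATA2 giving way to GATA1 as cells mature. Erythropoietin then sustains the precursors, transferrin receptor brings in iron, and heme made partly in mitochondria is joined to globin. The spleen of the adult mouse, unlike that of most adult humans, holds red cell precursors. KIT, GATA2 and GATA1 are also known from mast cells, and GATA1, TAL1, GFI1B and NFE2 from megakaryocytes.

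Library totals ran from 93478686 to 125974143 estimated counts. Levels are given as CPM, counts per 1e+06 after scaling by trimmed mean of M-values (TMM), in the order of replicates 1 to 4. Replicates 3 and 4 of each group carry a hyphen before the number in their column names and replicates 1 and 2 do not. What this naming stands for is not given in the sources used here, and the pairs are called the hyphen and no hyphen libraries. Same-group libraries differed more across these pairs than within them, and 4 libraries, ATF4 overexpression 1 and 2 and WT 1 and 4, held fewer than 1000 genes with 2 to 5 counts. Atf4 itself had 445, 427, 228 and 212 CPM in ATF4 overexpression libraries, against 285, 308, 165 and 165 CPM in WT libraries, so it was higher in ATF4 overexpression within each pair of columns but overlapped across them (log2 fold change 0.51 ± 0.31, SE). The CD8 T cell genes Cd8a and Cd8b1 were abundant in both groups, with Cd8a at 1085 ± 73.8 CPM in ATF4 overexpression and 1395 ± 106 CPM in WT (SD, n = 4 each).

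Most of the transcription factor, globin, membrane and carbonic anhydrase genes were higher in ATF4 overexpression. Transferrin receptor and the sum of the heme synthesis genes stood at similar levels in both groups. Single heme synthesis genes lay higher or lower, and none of them was called in the main fit. A gene was called where edgeR's quasi-likelihood test gave a Benjamini-Hochberg adjusted p below 0.05 over the 16630 genes tested. Of the 34 members in the table, 32 passed the filter on low counts, and Rhd and Trim10 did not. Of these 32, 20 were called higher, 0 lower, and 12 were not called. Over all tested genes 9.16% were called higher and 4.89% lower. Since the members were chosen with this contrast known, and a gene low in WT could pass the filter through its level in ATF4 overexpression, nothing is read from these shares. At an unadjusted p below 0.05, 2 members were lower, as were 1891 of the 16630 genes, and DESeq2 called 1 lower, against 1093 genes in all. The median log2 fold change of the 32 was 2.61, against -0.02 over all tested genes. In 19 of the 32 every ATF4 overexpression library stood above every WT library, as in 13.3% of all tested genes. In 2 of the 32 every ATF4 overexpression library stood below every WT library, as in 1440 of the 16630 genes. In bulk RNA a larger number of cells of a type and more RNA per cell cannot be told apart, for these or any other genes below.

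**Figure D1:**
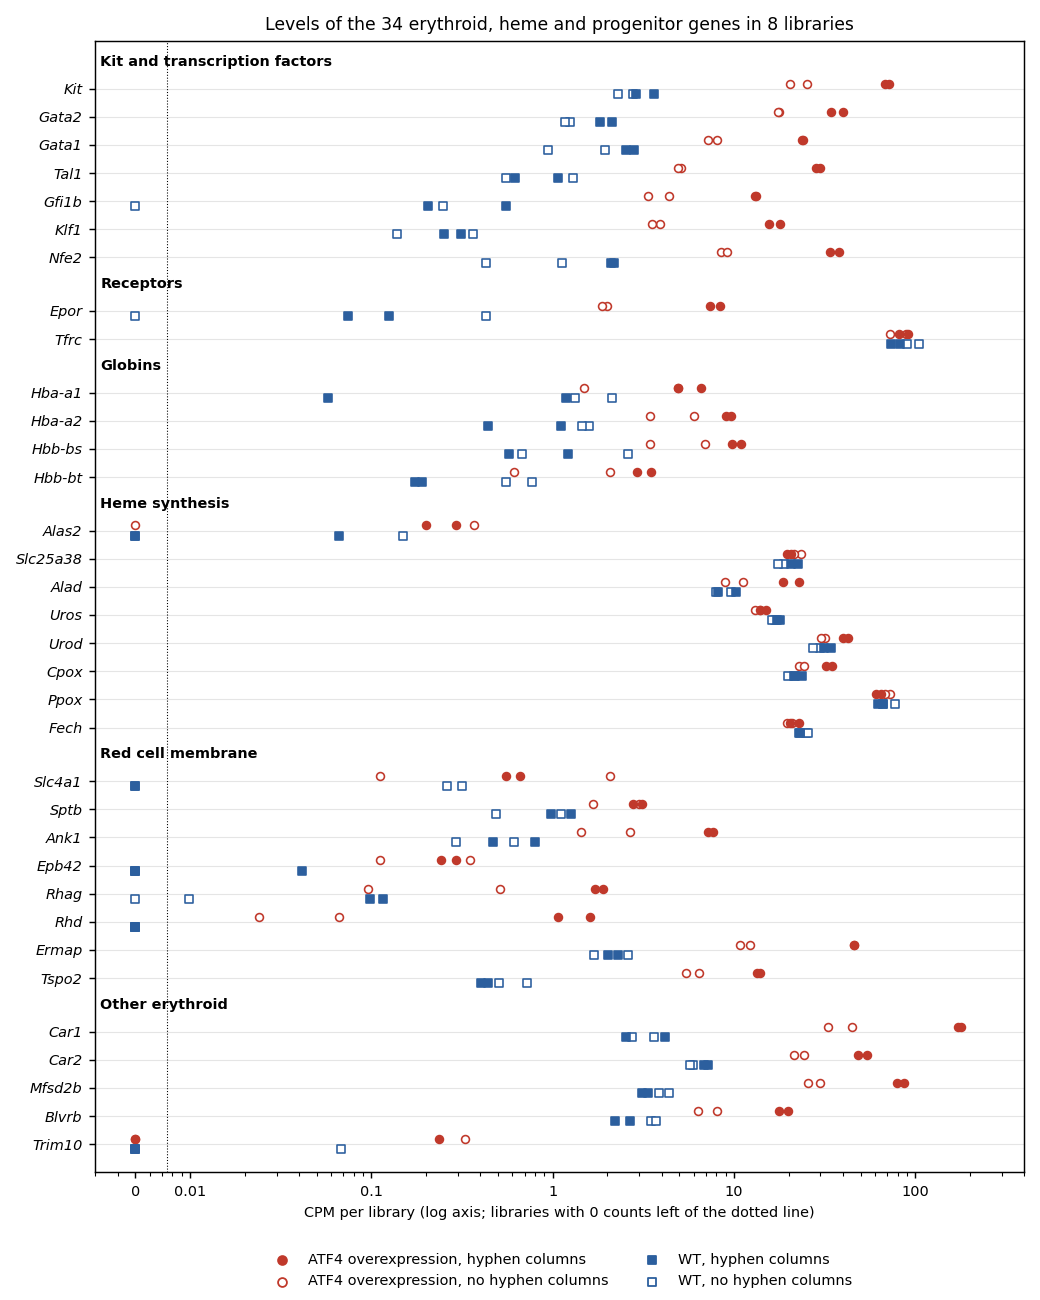
CPM of each of the 34 genes in the 8 libraries on a log axis, by role, with ATF4 overexpression as circles above WT as squares and filled symbols for the hyphen libraries. The 7 genes of the first group lie wholly to the right of WT in ATF4 overexpression, while Tfrc and most heme synthesis genes overlap.

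Kit and all 6 transcription factors were called higher. With limma-voom 3 of these 7 were called, and Tal1, Klf1, Gfi1b and Nfe2 were not. Gfi1b was also not called within the no hyphen libraries. Kit, the receptor for stem cell factor (chr5:75574916-75656722, plus strand, GRCm38), had 25.3, 20.5, 72.1 and 67.9 CPM in ATF4 overexpression libraries, against 2.29, 2.78, 3.64 and 2.87 CPM in WT libraries. Every ATF4 overexpression library stood well above every WT library, and the hyphen libraries were the highest. Kit had a log2 fold change of 4.00 ± 0.45 (SE), or 16.0-fold between the means.

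Gata2 (chr6:88193891-88207032, plus strand), the zinc finger factor of stem cells and early progenitors, had 17.7, 17.5, 34.5 and 39.9 CPM in ATF4 overexpression libraries, against 1.25, 1.17, 2.12 and 1.82 CPM in WT libraries. Gata1 (chrX:7959260-7978071, minus strand), which drives red cell, megakaryocyte and mast cell maturation, had 7.22, 8.07, 23.9 and 24.2 CPM in ATF4 overexpression libraries, against 0.949, 1.95, 2.53 and 2.81 CPM in WT libraries. Neither gene overlapped between the groups. Their log2 fold changes were 4.10 ± 0.35 for Gata2 and 2.94 ± 0.50 for Gata1 (SE), so the gene of the earlier stage showed the larger fold, with no test of that difference.

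Tal1 (chr4:115056426-115071755, plus strand), a basic helix-loop-helix factor that binds DNA together with GATA factors, had 5.09, 4.92, 29.7 and 28.2 CPM in ATF4 overexpression libraries, against 0.554, 1.29, 0.617 and 1.07 CPM in WT libraries. Klf1 (chr8:84901928-84905291, plus strand), the activator of adult beta globin, had 3.89, 3.51, 15.6 and 18.0 CPM in ATF4 overexpression libraries, against 0.362, 0.139, 0.250 and 0.313 CPM in WT libraries. In both genes the hyphen libraries of ATF4 overexpression were several times the other ATF4 overexpression libraries, while the WT libraries stayed near or below 1 CPM. The log2 fold change was 4.26 ± 0.72 for Tal1 and 5.27 ± 0.66 for Klf1 (SE), the highest of the called members.

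Gfi1b, a repressor needed for red cells and platelets, had 3.35, 4.40, 13.2 and 13.0 CPM in ATF4 overexpression libraries, against 0, 0.248, 0.550 and 0.206 CPM in WT libraries. Nfe2, a subunit of a factor that acts on globin and platelet genes, had 8.47, 9.19, 33.9 and 37.8 CPM in ATF4 overexpression libraries, against 0.429, 1.13, 2.11 and 2.19 CPM in WT libraries. Both were separate between the groups, and Gfi1b was near the limit of detection in WT. Gfi1b had a log2 fold change of 5.05 ± 0.94 and Nfe2 of 3.92 ± 0.69 (SE). Summed over the 7 genes, the level was 148 ± 90.4 CPM in ATF4 overexpression and 9.41 ± 2.74 CPM in WT (SD, n = 4 each), 15.7-fold apart.

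Of the 2 receptors, Epor was called higher and Tfrc was not called. The Epor call was lost with limma-voom and within the no hyphen libraries. Epor, the erythropoietin receptor, had 2.00, 1.87, 7.35 and 8.37 CPM in ATF4 overexpression libraries, against 0, 0.427, 0.125 and 0.074 CPM in WT libraries, a log2 fold change of 4.96 ± 1.04 (SE). Tfrc, the transferrin receptor that proliferating cells in general also use, had 88.5, 72.8, 91.6 and 81.7 CPM in ATF4 overexpression libraries, against 105, 90.4, 82.8 and 73.7 CPM in WT libraries. Epor was separate between the groups at low levels, and Tfrc overlapped over the 8 libraries, being lower in ATF4 overexpression in both no hyphen libraries (log2 fold change -0.07 ± 0.12, SE).

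Promoter sequences of these and other members are shown because GATA1 and GATA2, whose genes are members, bind a WGATAR-type motif. Whether they act on the other members was not tested. RefSeq promoters on GRCm38.p6, from 250 bases before to 50 bases after the start of a gene, were at hand for 28 of the members. The 6 below, printed in the direction of the gene, were picked from those holding a GATA motif: 4 called members, and Alas2 and Cpox, which were not called. Capitals mark the motif, which is AGATAA or AGATAG or the same letters with T in first place, and a match on the opposite strand stands as its reverse complement.
Klf1, chr8:84901732-84902031, plus strand: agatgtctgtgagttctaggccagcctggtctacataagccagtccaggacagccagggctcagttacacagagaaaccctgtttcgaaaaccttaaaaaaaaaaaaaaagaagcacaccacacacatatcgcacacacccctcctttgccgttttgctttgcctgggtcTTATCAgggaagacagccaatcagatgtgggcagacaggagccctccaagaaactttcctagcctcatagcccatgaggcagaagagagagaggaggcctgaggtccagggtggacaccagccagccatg
Gfi1b, chr2:28621933-28622232, minus strand: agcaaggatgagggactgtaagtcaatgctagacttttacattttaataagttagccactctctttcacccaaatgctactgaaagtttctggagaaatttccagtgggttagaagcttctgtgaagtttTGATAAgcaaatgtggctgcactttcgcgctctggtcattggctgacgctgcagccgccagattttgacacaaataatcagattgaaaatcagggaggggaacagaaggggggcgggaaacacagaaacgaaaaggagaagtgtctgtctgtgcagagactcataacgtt
Epor, chr9:21963527-21963826, minus strand: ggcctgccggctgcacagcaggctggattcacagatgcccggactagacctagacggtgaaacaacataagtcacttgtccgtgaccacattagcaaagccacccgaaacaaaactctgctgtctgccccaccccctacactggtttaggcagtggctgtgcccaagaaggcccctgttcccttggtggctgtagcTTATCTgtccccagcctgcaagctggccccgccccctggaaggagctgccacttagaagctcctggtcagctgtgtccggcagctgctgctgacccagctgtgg
Ermap, chr4:119189946-119190245, minus strand: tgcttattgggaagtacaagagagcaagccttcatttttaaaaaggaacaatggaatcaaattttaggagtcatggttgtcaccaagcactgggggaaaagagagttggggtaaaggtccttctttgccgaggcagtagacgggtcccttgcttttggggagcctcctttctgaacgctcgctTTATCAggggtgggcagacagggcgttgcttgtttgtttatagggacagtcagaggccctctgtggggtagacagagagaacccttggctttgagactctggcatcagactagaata
Alas2, chrX:150547167-150547466, plus strand: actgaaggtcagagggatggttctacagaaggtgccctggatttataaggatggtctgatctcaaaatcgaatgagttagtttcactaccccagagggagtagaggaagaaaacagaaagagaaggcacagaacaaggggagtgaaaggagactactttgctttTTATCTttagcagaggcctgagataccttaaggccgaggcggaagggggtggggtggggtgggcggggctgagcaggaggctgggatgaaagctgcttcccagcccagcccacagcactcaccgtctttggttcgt
Cpox, chr16:58669958-58670257, plus strand: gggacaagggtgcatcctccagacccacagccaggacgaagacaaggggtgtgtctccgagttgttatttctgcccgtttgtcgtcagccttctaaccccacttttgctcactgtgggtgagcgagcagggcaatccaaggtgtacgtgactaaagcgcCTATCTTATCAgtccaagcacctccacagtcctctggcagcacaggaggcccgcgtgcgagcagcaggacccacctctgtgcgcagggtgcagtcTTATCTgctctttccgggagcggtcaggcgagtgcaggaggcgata

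Relative to the start of the gene, the motif began at position -80 in Klf1, -120 in Gfi1b, -54 in Epor, -67 in Ermap and -86 in Alas2. Cpox held 3 matches, of which a pair overlapped. Over all members with a promoter, the GATA motif was found in 10 of 16 called higher (62.5%) and in 5 of 10 not called (50.0%), against 33.0% of 27025 genes with a promoter of that length. The members called higher that lacked it were Kit, Gata1, Gata2, Hbb-bt, Tspo2 and Mfsd2b. A CACCC motif, CCNCNCCC, the kind of sequence KLF1 binds, was found on either strand in 12 of 16 members called higher (75.0%) and 8 of 10 not called (80.0%), against 51.9% of all genes. The motif TGATGNAA, to which ATF4 binds with C/EBP partners, was found in 0 of the 16 and 0 of the 10, against 4.51% of all genes. Both erythroid motifs were thus present among called and uncalled members alike. A match is a string of letters and not a shown binding site, and the lack of one concerns this window only.

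Of the 4 adult globin genes with a row, 3 were called higher, all at low levels. Hba-a2, an alpha globin, had 3.44, 6.04, 9.58 and 9.02 CPM in ATF4 overexpression libraries, against 1.59, 1.45, 0.442 and 1.12 CPM in WT libraries. Hbb-bs, a beta globin, had 3.43, 6.89, 11.0 and 9.80 CPM in ATF4 overexpression libraries, against 0.678, 2.60, 1.22 and 0.576 CPM in WT libraries. In both the groups were separate, with ATF4 overexpression replicate 1 the lowest of its group. Fold changes on the log2 scale were 2.61 ± 0.45 for Hba-a2 and 2.62 ± 0.54 for Hbb-bs (SE).

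Hbb-bt, the other adult beta globin, had 0.609, 2.07, 3.49 and 2.92 CPM in ATF4 overexpression libraries, against 0.768, 0.556, 0.175 and 0.189 CPM in WT libraries. Hba-a1, the other alpha globin, had 1.49, 4.89, 6.55 and 4.95 CPM in ATF4 overexpression libraries, against 1.33, 2.12, 1.18 and 0.058 CPM in WT libraries. Both overlapped through ATF4 overexpression replicate 1. Hbb-bt was called (log2 fold change 2.43 ± 0.65, SE), but leaving out any 1 of 6 of the 8 libraries ended the call, which held only without replicate 1 of either group, and it was also not called with the replicate number as a block. Hba-a1 was not called (1.93 ± 0.81, SE).

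The globin pairs cannot be counted cleanly apart. The coding sequences of Hba-a1 and Hba-a2 are identical at 428 of 429 bases and those of Hbb-bs and Hbb-bt at 443 of 444, so the division of reads within a pair rests on Salmon's model. With the counts of each pair summed, an alternative added after seeing the data, both sums were called, with a log2 fold change of 2.31 ± 0.44 for the alpha and 2.57 ± 0.50 for the beta pair (SE). The 4 genes summed to 21.5 ± 9.48 CPM in ATF4 overexpression and 4.01 ± 2.06 CPM in WT (SD, n = 4 each), 5.37-fold apart.

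**Figure D2:**
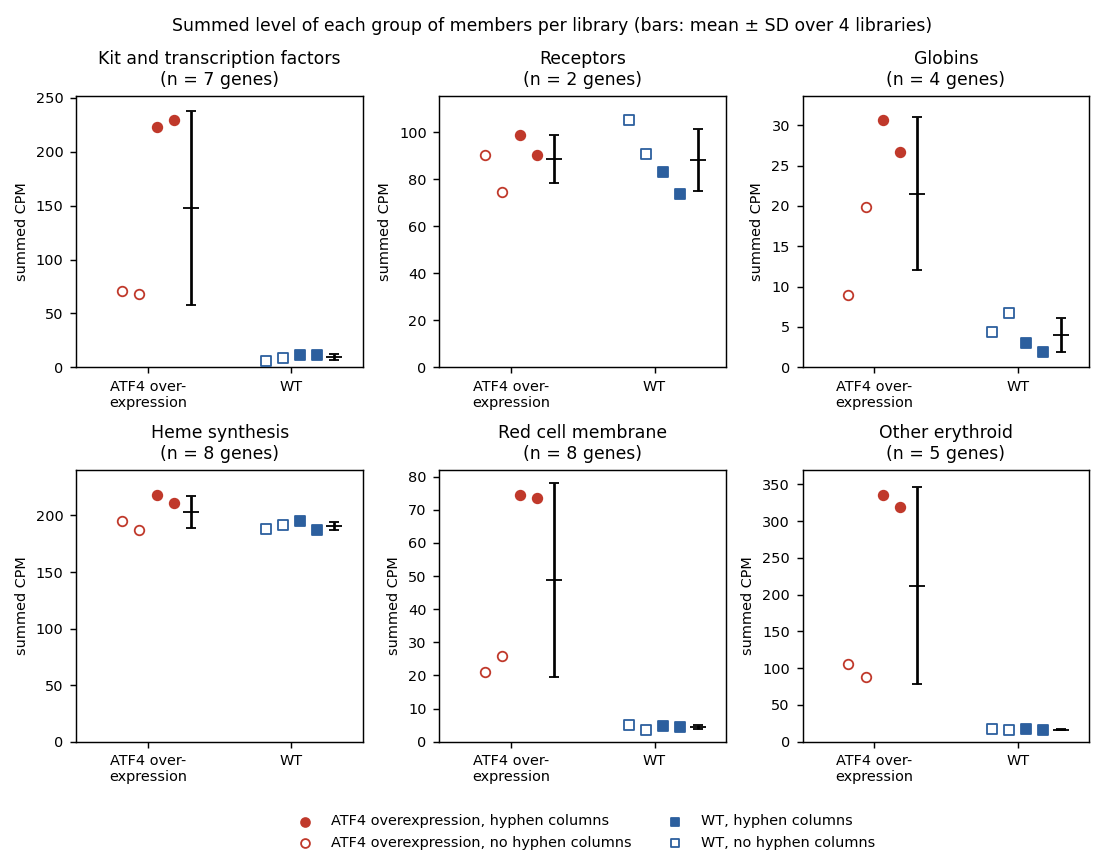
Summed CPM of each group of genes in each library, ATF4 overexpression left of WT, with filled symbols for the hyphen libraries and bars for the mean ± SD over 4 libraries. The sums of heme synthesis genes and receptors stand at like levels in both groups, and the other 4 sums are higher in all 4 ATF4 overexpression libraries.

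None of the 8 heme synthesis genes was called in either direction by edgeR with group only, but with the replicate number as a block Alad, Cpox and Urod were called higher and Uros lower. With group only there were 2 higher and 2 lower at an unadjusted p below 0.05, and 2 higher and 1 lower by DESeq2. Over all tested genes the replicate block called 13.7% higher and 13.5% lower. At an unadjusted p below 0.05, 2514 of the 16630 genes were higher and 1891 lower, and DESeq2 called 2334 genes higher and 1093 lower. Nothing is read from these counts among 8 genes. The sum of the 8 heme synthesis genes was 203 ± 14.2 CPM in ATF4 overexpression and 191 ± 3.43 CPM in WT (SD, n = 4 each). Alas2, the erythroid enzyme of the first step, was near the limit of detection, with 0, 0.368, 0.294 and 0.201 CPM in ATF4 overexpression libraries, against 0, 0.149, 0.067 and 0 CPM in WT libraries. Slc25a38, the mitochondrial carrier that brings in glycine for that step, had a log2 fold change of 0.11 ± 0.11 (SE), with overlapping groups.

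Alad, the enzyme of the second step, had 11.2, 8.98, 23.0 and 18.6 CPM in ATF4 overexpression libraries, against 9.68, 7.93, 10.2 and 8.20 CPM in WT libraries. Cpox, the coproporphyrinogen oxidase of a later step, had 22.9, 24.4, 32.3 and 34.7 CPM in ATF4 overexpression libraries, against 21.8, 19.8, 21.4 and 23.7 CPM in WT libraries. In both, the hyphen libraries of ATF4 overexpression were the highest, and 1 of its no hyphen libraries fell within the WT range. The log2 fold change was 0.78 ± 0.27 for Alad and 0.40 ± 0.14 for Cpox (SE), and both were called higher with the replicate number as a block, with DESeq2 and within the hyphen libraries.

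Uros, which closes the porphyrin ring, had 14.0, 13.1, 15.1 and 13.9 CPM in ATF4 overexpression libraries, against 16.8, 16.3, 17.2 and 18.0 CPM in WT libraries. Fech, which inserts iron in the last step, had 19.7, 20.9, 20.3 and 22.8 CPM in ATF4 overexpression libraries, against 24.9, 25.8, 23.0 and 23.2 CPM in WT libraries. Both were lower, by a small amount, in every ATF4 overexpression library than in any WT library. The same separation was found in 1440 of the 16630 tested genes. On the log2 scale the change was -0.28 ± 0.10 for Uros and -0.21 ± 0.09 for Fech (SE), and Uros was called lower with the replicate number as a block.

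Urod, which removes carboxyl groups from uroporphyrinogen, and Ppox, protoporphyrinogen oxidase, overlapped between the groups, with log2 fold changes of 0.23 ± 0.13 and -0.04 ± 0.09 (SE). Urod was called higher within the hyphen libraries, at 42.4 and 40.1 CPM in ATF4 overexpression against 34.4 and 31.4 CPM in WT, and with the replicate block. Ppox shares 791 exon bases with B4galt3 on the opposite strand, Cpox 204 with Gpr15 and Alas2 311 with Apex2, and the strand setting of the counting is not given in the sources used here, so reads of the partners may not be separable.

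Of the 7 red cell membrane genes tested, 5 were called higher. Ermap, an erythroblast membrane protein of the immunoglobulin superfamily (chr4:119175457-119190011, minus strand), had 12.2, 10.8, 45.7 and 46.2 CPM in ATF4 overexpression libraries, against 2.62, 1.70, 2.30 and 2.02 CPM in WT libraries. Tspo2, an erythroid relative of the mitochondrial translocator protein, had 5.42, 6.43, 14.0 and 13.4 CPM in ATF4 overexpression libraries, against 0.723, 0.506, 0.442 and 0.403 CPM in WT libraries. Both were separate between the groups and highest in the hyphen libraries of ATF4 overexpression. Their log2 fold changes were 3.73 ± 0.54 for Ermap and 4.25 ± 0.39 for Tspo2 (SE).

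Ank1, the ankyrin that ties the spectrin skeleton to the membrane, had 1.43, 2.67, 7.67 and 7.23 CPM in ATF4 overexpression libraries, against 0.294, 0.616, 0.467 and 0.798 CPM in WT libraries. Sptb, erythroid beta spectrin, had 1.67, 3.01, 2.78 and 3.11 CPM in ATF4 overexpression libraries, against 1.12, 0.487, 1.27 and 0.979 CPM in WT libraries. Neither overlapped, and Sptb was the only called member whose hyphen libraries were not both above the others in ATF4 overexpression. The log2 fold change was 3.12 ± 0.57 for Ank1 and 1.45 ± 0.36 for Sptb (SE), and the Sptb call was lost without ATF4 overexpression replicate 2, 3 or 4 or WT replicate 4. Ank1 shares 862 exon bases with Gm15816 on the opposite strand.

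RNA of the Rh genes Rhag and Rhd was nearly absent from WT. Rhag, the Rh-associated channel of the red cell membrane, had 0.096, 0.510, 1.90 and 1.72 CPM in ATF4 overexpression libraries, against 0, 0.010, 0.117 and 0.099 CPM in WT libraries. Rhd, its partner in the Rh complex, had 0.024, 0.066, 1.60 and 1.07 CPM in ATF4 overexpression libraries and 0 in every WT library. The hyphen libraries held most of both. Rhag was called (log2 fold change 4.17 ± 1.20, SE) but stayed called in only 1 of the 8 fits that left out a library, the one without ATF4 overexpression replicate 1. Rhd, with 334 counts in ATF4 overexpression, was at least 101-fold higher when a floor of 3 counts over the WT group is used.

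Slc4a1, the anion exchanger band 3 of mature red cells, had 0.112, 2.08, 0.661 and 0.552 CPM in ATF4 overexpression libraries, against 0.260, 0.318, 0 and 0 CPM in WT libraries. Epb42, the band 3 binding protein 4.2, had 0.112, 0.349, 0.294 and 0.243 CPM in ATF4 overexpression libraries, against 0, 0, 0.042 and 0 CPM in WT libraries. Neither was called, both rest on few reads, and Epb42 was called higher under the replicate block. The 8 membrane genes summed to 48.8 ± 29.3 CPM in ATF4 overexpression and 4.40 ± 0.586 CPM in WT (SD, n = 4 each).

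Among the other erythroid genes all 4 tested were called higher. Car1 (chr3:14766216-14808368, minus strand), the carbonic anhydrase that marks early erythroid progenitors of the mouse, had 44.6, 33.0, 178 and 171 CPM in ATF4 overexpression libraries, against 3.62, 2.74, 4.19 and 2.53 CPM in WT libraries. Car2, the more widely expressed carbonic anhydrase, had 24.4, 21.5, 53.9 and 48.6 CPM in ATF4 overexpression libraries, against 5.97, 5.69, 6.80 and 7.16 CPM in WT libraries. Both were far apart between the groups, with the hyphen libraries of ATF4 overexpression highest. Car1 had a log2 fold change of 5.03 ± 0.66, or 32.6-fold between the means, and Car2 of 2.53 ± 0.30 (SE).

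Mfsd2b (chr12:4862440-4874359, minus strand), the exporter of sphingosine 1-phosphate from red cells and platelets, had 29.8, 25.5, 86.8 and 79.3 CPM in ATF4 overexpression libraries, against 4.40, 3.86, 3.37 and 3.10 CPM in WT libraries. Blvrb, a biliverdin reductase abundant in red cells, had 6.37, 8.02, 17.7 and 20.0 CPM in ATF4 overexpression libraries, against 3.49, 3.69, 2.22 and 2.68 CPM in WT libraries. Neither overlapped, and within WT the hyphen libraries of both were the lower ones. The log2 fold change was 3.91 ± 0.44 for Mfsd2b and 2.11 ± 0.38 for Blvrb (SE). Trim10, a RING finger protein of erythroid maturation, had 0, 0.330, 0.237 and 0 CPM in ATF4 overexpression libraries, against 0.068, 0, 0 and 0 CPM in WT libraries, too few to test.

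**Figure D3:**
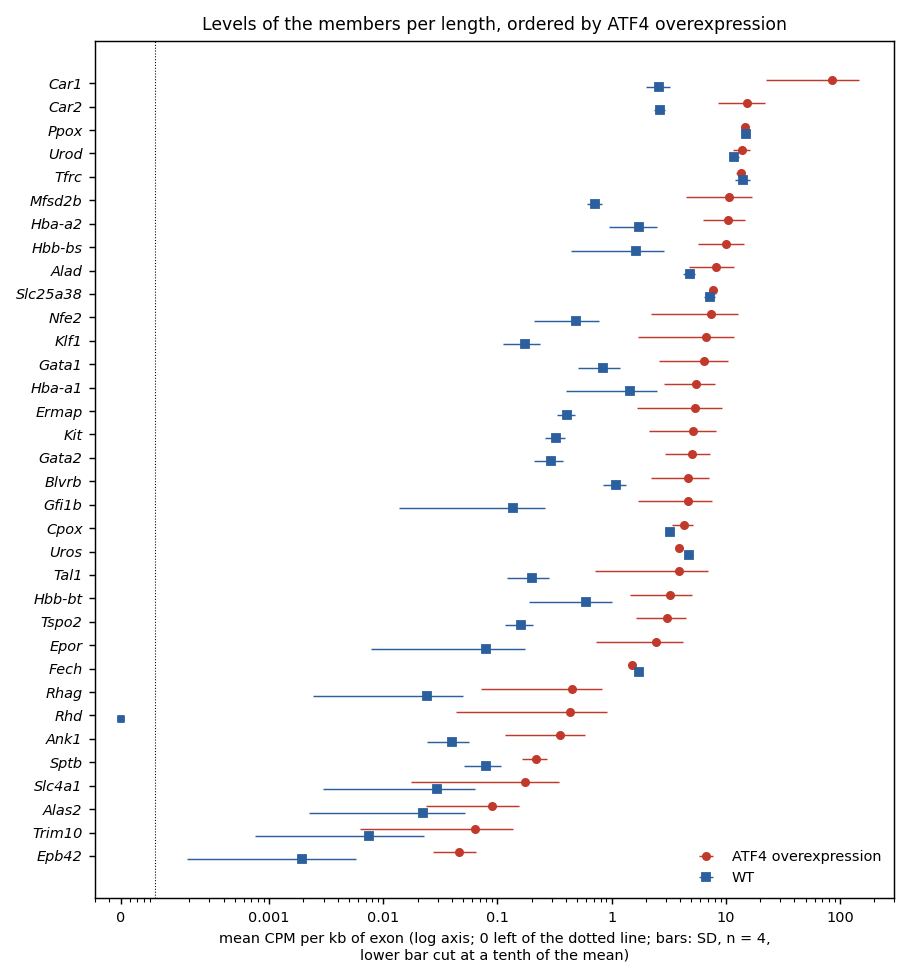
Mean CPM per kb of exon of each gene on a log axis, ATF4 overexpression as circles and WT as squares, with SD over 4 libraries (lower bars are shortened where the SD comes close to or passes the mean). Car1 leads in ATF4 overexpression at 85.4 CPM per kb, and Ppox leads in WT at 15.1 CPM per kb.

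The order of the members by level changed between the groups. Per kb of exon, Car1 averaged 85.4 ± 62.9 CPM per kb in ATF4 overexpression, the highest of 34, and 2.62 ± 0.619 CPM per kb in WT, where it was number 9. Next in ATF4 overexpression came Car2 at 15.3, Ppox at 14.7, Urod at 13.9 and Tfrc at 13.5 CPM per kb, whose SDs overlap. In WT the top members were Ppox at 15.1, Tfrc at 14.2 and Urod at 11.9 CPM per kb, all genes that dividing or resting cells of many kinds use. Klf1 stood at 6.71 CPM per kb in ATF4 overexpression and 0.174 in WT. Hba-a2 reached 10.5 CPM per kb in ATF4 overexpression and 1.73 in WT, below Car1 in both. The lowest members in ATF4 overexpression were Slc4a1, Alas2, Trim10 and Epb42, at 0.174, 0.0898, 0.0632 and 0.0461 CPM per kb. They were among the lowest in WT as well.

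The size of the difference was larger in the hyphen libraries than in the others for most members. Among the 20 members called higher, 19 had both hyphen libraries above both others in ATF4 overexpression. In WT the hyphen libraries were both above the others in 6 of the 20 and both below in 5. The median ratio of hyphen over no hyphen means was 3.10 in ATF4 overexpression and 1.09 in WT. For Car1 it was 4.50 in ATF4 overexpression and 1.06 in WT.

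Fitted within each set, 2 libraries against 2, 25 of 33 members tested were called higher in the hyphen libraries, where 14.3% of all tested genes were, and 13 of 32 in the no hyphen libraries, where 6.75% were. The shares of all tested genes called lower were 8% in the hyphen and 3.07% in the no hyphen libraries, against 0 and 0 members. With the replicate number as a block over all 8 libraries, 23 members were called higher and 1 lower, against 13.7% and 13.5% of all tested genes. Over the 30 members with counts in both groups of both sets, 25 had the larger log2 fold change in the hyphen libraries, and the medians were 3.55 in the hyphen and 1.85 in the no hyphen libraries. Over all members tested in the 8 libraries, 27 of 32 had a larger log2 fold change in the hyphen libraries, as had 9156 of the 16630 genes.

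**Figure D4:**
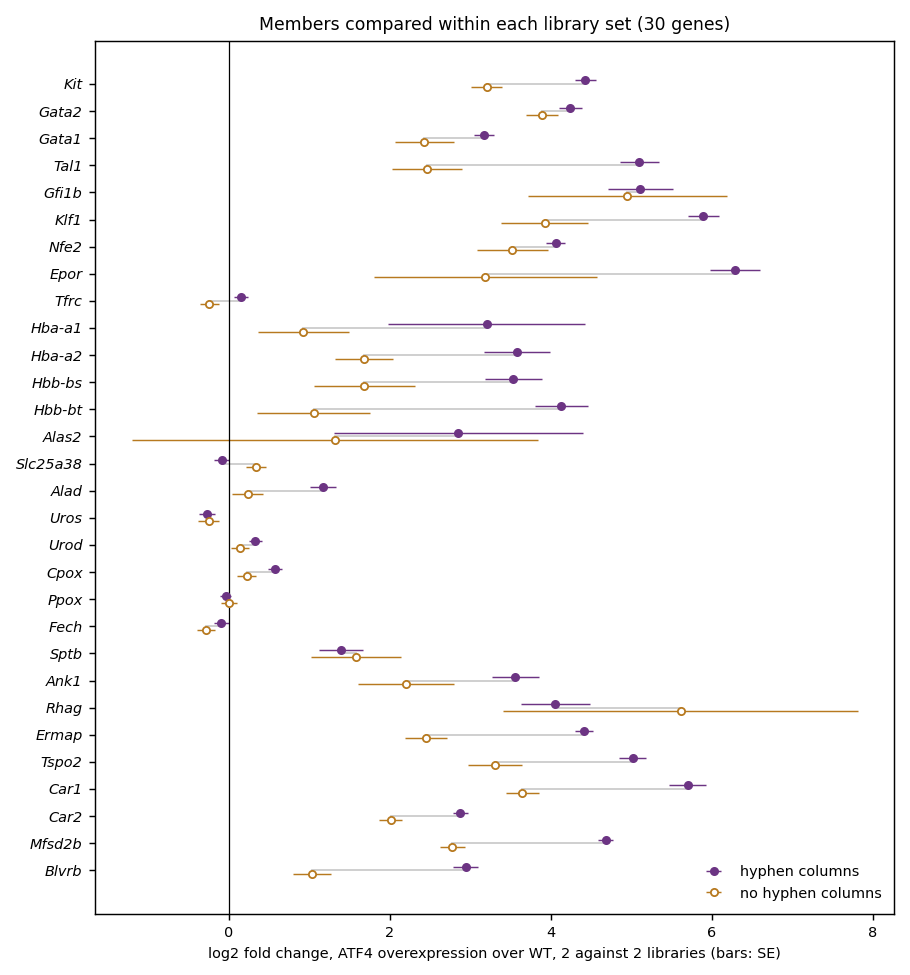
Log2 fold change of ATF4 overexpression over WT for 30 genes within the hyphen libraries (filled) and the no hyphen libraries (open), 2 libraries against 2, with SE. The filled point lies to the right of the open one in 25 of the 30.

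The difference between the sets was fitted as an interaction term in edgeR over all 16630 genes. It was called in 8 of the 32 members, all with the larger difference in the hyphen libraries, against 0.998% of all tested genes, of which 0.523% were larger in the hyphen libraries. The members had been chosen with results of both sets known, so this count is a description too. The difference of log2 fold changes, hyphen minus no hyphen, was 1.94 ± 0.17 for Mfsd2b, 1.99 ± 0.26 for Ermap and 1.94 ± 0.25 for Blvrb (SE). The other 5 were Kit, Tal1, Tspo2, Car1 and Car2. Klf1 (2.00 ± 0.49) and Gata2 (0.38 ± 0.19) were not called by it. The count of 8 depended on single libraries, being 2 to 5 when any 1 library was left out.

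Genes of the same pathways outside the members were examined next, from lists not picked by how they moved, though drawn up with results of these data known. Of 19 other red cell genes tested, 10 were called higher, 0 lower, with a median log2 fold change of 2.62, against 9.16% higher and a median of -0.02 over all tested genes. At an unadjusted p below 0.05, 0 were lower, as with DESeq2. Stom, the membrane protein stomatin, averaged 20.9 ± 12.9 CPM in ATF4 overexpression and 1.16 ± 0.469 CPM in WT (SD, n = 4 each), with an edgeR adjusted p of 0.001. Aqp1, the red cell water channel, averaged 32.7 ± 23.6 CPM in ATF4 overexpression and 1.17 ± 0.472 CPM in WT, and Tmcc2, a transmembrane protein expressed in erythroid cells, had a log2 fold change of 3.82 ± 0.55 (SE). Epb41, protein 4.1, which many cells make, was not called (log2 fold change -0.14 ± 0.08, SE) but was called lower with the replicate block, and Zfpm1, the GATA1 cofactor FOG1, was called with 0.66 ± 0.13. The embryonic globins Hbb-bh1, Hbb-y and Hba-x had 0 counts in all 8 libraries. Within the hyphen libraries 16 of the list were called higher, against 14.3% of all tested genes, and within the no hyphen libraries 4, against 6.75%.

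Of 17 other heme and iron genes tested, 4 were called higher and 0 lower, against 9.16% and 4.89% of all tested genes. At an unadjusted p below 0.05, 2 were lower, and 0 by DESeq2. The median log2 fold change of the 17 was 0.11. Slc40a1, the iron exporter ferroportin, averaged 14.9 ± 3.52 CPM in ATF4 overexpression and 1.66 ± 0.741 CPM in WT (log2 fold change 3.17 ± 0.33, SE). Hmox1, the inducible heme oxygenase, averaged 20.4 ± 6.33 CPM in ATF4 overexpression and 3.12 ± 1.61 CPM in WT (2.71 ± 0.40, SE). Both are also strongly expressed by macrophages. Abcb10, a mitochondrial transporter of erythroid cells, had a log2 fold change of 1.33 ± 0.29 (SE), and the last called gene was Steap3, a ferrireductase, named after its values were seen. The ferritin chains Fth1 and Ftl1 were not called. Eif2ak1, the heme-regulated kinase that signals to ATF4, averaged 75.6 ± 7.81 CPM in ATF4 overexpression and 72.2 ± 8.03 CPM in WT.

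Of 17 stem and progenitor genes tested, 13 were called higher and 0 lower, against 9.16% and 4.89% of all tested genes. At an unadjusted p below 0.05, and by DESeq2, 0 were lower. The median log2 fold change of the 17 was 2.75. Lmo2, the bridging protein of the TAL1 and GATA complex, averaged 30.2 ± 17.4 CPM in ATF4 overexpression and 1.79 ± 0.191 CPM in WT (log2 fold change 4.08 ± 0.43, SE). Lyl1, a close relative of Tal1, had a log2 fold change of 3.83 ± 0.39, and Erg, an ETS factor of stem cells and megakaryocytes, 4.41 ± 0.67 (SE). Myb, which T cells and progenitors share, averaged 156 ± 62.8 CPM in ATF4 overexpression and 91.8 ± 10.2 CPM in WT and was not called, with an edgeR adjusted p of 0.088, and Runx1 was not called at 0.09 ± 0.10. Without ATF4 overexpression replicate 3, or without replicate 4, 6 of the list were called. The share of all tested genes called in those fits is not at hand.

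**Figure D5:**
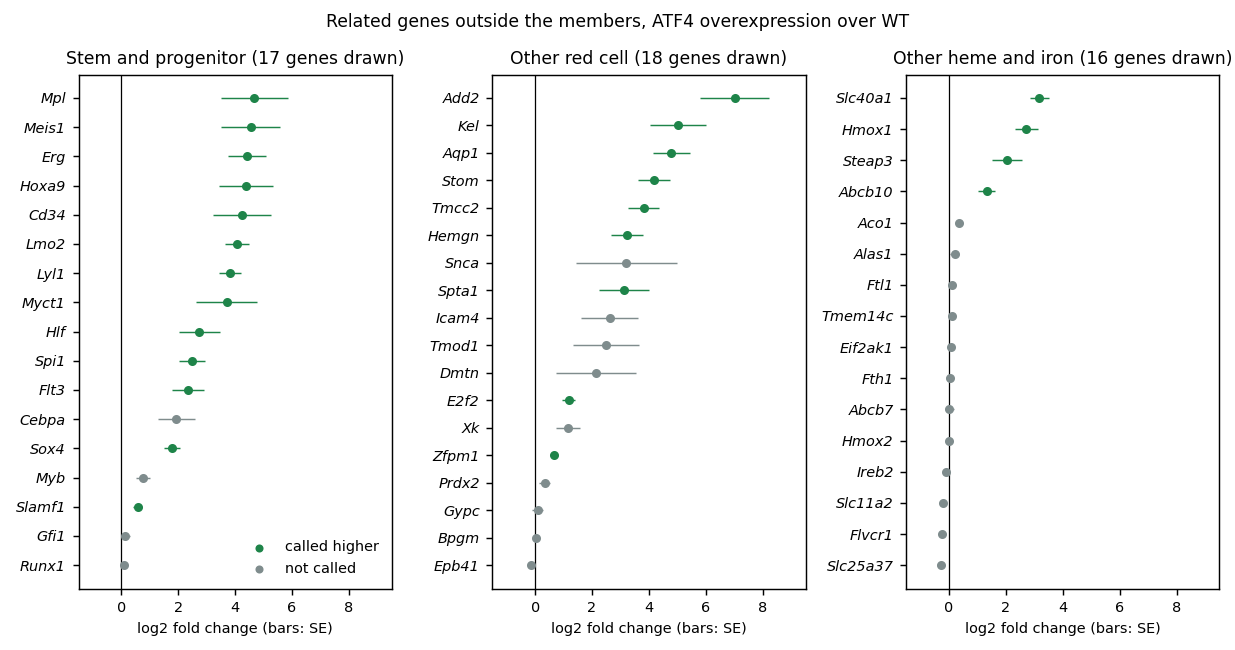
Log2 fold change of ATF4 overexpression over WT with SE for genes of 3 related lists, green where called higher, with 2 tested genes not drawn. Those called make up 13 of 17 stem and progenitor genes, 10 of 19 other red cell genes and 4 of 17 other heme and iron genes tested. Over all tested genes 9.16% were called higher.

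Markers of other blood cells moved between the groups as well. Beside the counts of markers and proliferation genes called higher below, 9.16% of all tested genes were called higher. That share was 13.7% with the replicate block, 14.3% within the hyphen and 6.75% within the no hyphen libraries. Mast cell and basophil markers summed to 11.9 to 38.0 CPM in ATF4 overexpression libraries and 1.57 to 10.7 CPM in WT libraries, with 1 of 8 tested called higher, Il1rl1, and the tryptases Tpsb2 and Tpsab1 at 4 or fewer counts in either group. Within the hyphen libraries 5 of the 8 tested there were called higher, within the no hyphen libraries 2 of the 5 tested, and with the replicate block 4 of 8. Platelet and megakaryocyte markers, dominated by Itgb3, summed to 69.3 to 85.5 CPM in ATF4 overexpression libraries and 26.7 to 37.3 CPM in WT libraries. Itgb3 alone averaged 62.1 ± 3.98 CPM in ATF4 overexpression and 29.1 ± 4.11 CPM in WT (SD, n = 4 each). Of the markers tested, 5 of 9 were called higher, and Gp9 was at 0 in every WT library. Myeloid markers summed to 117 to 261 CPM in ATF4 overexpression libraries and 17.5 to 72.7 CPM in WT libraries, with 6 of 9 called higher, or 8 with the replicate block. The sums of these 3 lists did not overlap between the groups in any library.

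B cell markers, dominated by Ighm, summed to 570.0 to 914 CPM in ATF4 overexpression libraries and 590 to 760 CPM in WT libraries, with 6 of 10 called higher. Natural killer cell markers, dominated by Eomes and Gzma, summed to 229 to 491 CPM in ATF4 overexpression libraries and 111 to 226 CPM in WT libraries. Of these markers, 4 of 10 were called higher, or 0 with the replicate block. Their sum was highest in the no hyphen libraries of ATF4 overexpression, the reverse of the erythroid genes. Within the hyphen libraries 8 B cell and 4 natural killer cell markers were called higher, and within the no hyphen libraries 9 of each list. With the replicate block 8 B cell markers were. Without the 4 libraries that lack low counts, 0 of the B cell and 0 of the natural killer cell markers were called, and 23 members were. The share of all tested genes called in that fit is not at hand, so nothing is read from these counts. That fit set the hyphen libraries ATF4 overexpression 3 and 4 against WT 2 (no hyphen) and WT 3 (hyphen). Group and set were thus partly mixed in it, and the no hyphen libraries of ATF4 overexpression were absent. CD8 T cell markers summed to 6473 to 6942 CPM in ATF4 overexpression libraries and 7968 to 8424 CPM in WT libraries. Of these 10 markers, 5 were called lower, against 4.89% of all tested genes, or 10 with the replicate block, against 13.5%.

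Proliferation genes summed to 267 to 679 CPM in ATF4 overexpression libraries and 91.7 to 140 CPM in WT libraries, with 9 of 10 called higher. Mki67 averaged 167 ± 74.4 CPM in ATF4 overexpression and 22.0 ± 6.40 CPM in WT (SD, n = 4 each). Like the erythroid genes, their sum was highest in the hyphen libraries of ATF4 overexpression, as were the mast cell and myeloid sums. In WT these sums were also higher in the hyphen libraries. WT replicates 1 to 4 had 1.57, 1.74, 8.31 and 10.7 CPM for mast cell and 17.5, 22.3, 72.7 and 68.3 CPM for myeloid markers. The median difference of log2 fold changes, hyphen minus no hyphen, was 1.11 over the members and 0.50 over proliferation genes. It was -0.91 over myeloid and -4.04 over mast cell markers. Of the 10 mast cell markers, 6 and 4 had 0 counts in WT 1 and 2. The part of these other cells, and of proliferation, in the results on the members was not tested.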

How the data were processed

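Polyadenylated RNA of CD8+ T cells enriched from mouse spleen was sequenced in 8 libraries, 4 for ATF4 overexpression and 4 for WT, grouped by their titles. Estimated counts per gene were deposited in 1 table, from Salmon 1.4.0 on GRCm38.p6 per the submitters' processing notes. The sources used here give neither an annotation release nor a strand setting. Salmon divides reads shared by similar genes by a model, so paralogs such as the globins are uncertain. The expected counts were rounded to whole numbers, and genes too low in both groups were removed with edgeR's filterByExpr.

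The main test was edgeR 4.0.16 (R 4.3.3), TMM scaling, robust quasi-likelihood fit with group only, Benjamini-Hochberg adjustment over all 16630 genes tested and a threshold of 0.05. CPM is counts over TMM-scaled library size, with exon lengths from GENCODE M21. SE is the absolute log2 fold change over the square root of the quasi-likelihood F statistic, not a directly fitted standard error. Totals of 93478686 to 125974143 counts make counting error small against the spread between libraries except for genes with few counts. The scripts were tested on simulated data. DESeq2 1.42.0, limma-voom (limma 3.58.1), other scalings and filters, leaving out each library, and library set or replicate number as a block were alternatives. Same-numbered libraries of the 2 groups deviated together (Pearson r from 0.199 to 0.289 across genes). Differently numbered libraries of the same set did so to a like degree (0.157 to 0.254). These values cannot tell a pairing by number from a shared set, and the sample titles give replicate numbers only. The replicate block is thus an alternative fit and not a known pairing.

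The members, the lists and the tests were chosen with earlier results of these data known. All members are named. Outside them, a gene is named if it had 1 of the 3 smallest p-values among the called genes of its list or 1 of the 2 highest mean CPM, or if it served as a check (Atf4, Eif2ak1, Mki67, Cd8a, Cd8b1, Cd3e). The embryonic globins, the tryptases and Steap3 were named after their values were seen. Some genes of these lists are counted but not reported here by name.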

Additional observations from a re-analysis of the deposited data

Results flagged for a closer look

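Among the members, 8 had a difference between ATF4 overexpression and WT that was itself larger in the hyphen than in the no hyphen libraries by edgeR's interaction test. The difference of the 2 log2 fold changes was 1.94 for Blvrb, 2.09 for Car1, 0.90 for Car2, 1.99 for Ermap, 1.25 for Kit, 1.94 for Mfsd2b, 2.67 for Tal1 and 1.75 for Tspo2. Epb42 had 0.0417 CPM in WT replicate 3 and 0 in the other WT libraries. Trim10 had 0.0678 CPM in WT replicate 1 and 0 in the other WT libraries. The last 2 stood out because 3 of the 4 WT libraries held no count, so that any count in the other one stands apart. They rest on 5 counts for Epb42 and 6 for Trim10.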

How the results depend on the processing

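Of the members, 20 were called higher and 0 lower. TMM replaced by RLE or upper-quartile scaling changed no member's call, and no called member changed sign under any setting tried. Of the uncalled ones, the log2 fold change of Tfrc was 0.149 within the hyphen libraries and -0.149 to 0.0228 with 1 library left out, that of Slc25a38 was -0.0902 within the hyphen libraries, and that of Ppox was 0.00222 with upper-quartile scaling and -0.0794 to 0.0285 with 1 library left out. The count higher was 13 with limma-voom and 13 in the no hyphen libraries, 23 with the replicate block, and 17 to 21 when 1 library was left out. With limma-voom the calls of Ank1, Epor, Gfi1b, Hbb-bt, Klf1, Nfe2, Rhag and Tal1 were lost, and Epb42 was gained. Within the no hyphen libraries those of Ank1, Epor, Gfi1b, Hbb-bs, Hbb-bt, Rhag and Sptb were lost. The count lower was 1 with DESeq2, with the replicate block and with the set block, in each case Uros. Other red cell genes called higher, 10 in the report, were 6 with a strict filter (at least 1 CPM in 4 libraries), 6 with limma-voom, 16 in the hyphen libraries, 4 in the no hyphen libraries and 8 to 9 with 1 library left out. Stem and progenitor genes, 13 in the report, were 7 with the strict filter, 7 with limma-voom, 5 in the no hyphen libraries and 6 to 14 with 1 library left out. Other heme and iron genes, 4 in the report, were 3 to 5 with 1 library left out and 6 with the replicate block. The interaction was called for 8 members, 17 without a filter on low counts, 3 with limma-voom and 2 to 5 with 1 library left out. The strict filter removed low genes, and fits on fewer libraries have fewer samples; the cause of the other shifts was not tested. Depth limits the members under 1 CPM in every library, Alas2, Epb42 and Trim10.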
